A study of Caenorhabditis elegans with 4 samples.

Results

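The genes described here are the 4 C. elegans cdc-25 paralogs (cdc-25.1, cdc-25.2, cdc-25.3 and cdc-25.4), the kinase genes wee-1.1 and wee-1.3, and cdk-1. These 7 genes were chosen by name and were all found, by WormBase gene identifier, among the 20392 genes of the RIP-seq tables. RIP-seq sequences the mRNA recovered with a protein (IP) and the mRNA of the lysate it was recovered from (input), here to find mRNAs that associate with CeLIN41, the TRIM-NHL protein LIN-41 of C. elegans. All worms were young adults of strain RAF1587 (Lab strain# 1587), which carries lin-41(rrr3) and, on chromosome II, the transgene rrrSi367 with an unc-119(+) marker. From this single-copy transgene, the lin-41 promoter drives LIN-41 tagged with FLAG, GFP and a TEV site, followed by the full-length lin-41 3′-UTR. Whole-worm lysates were prepared from 2 biological replicates grown in different weeks, and an input and an IP library of each gave 4 libraries. The labels give LIN-41 as the antibody target of the IPs, and the protocol describes beads that bind the FLAG tag. Libraries from a mock IP or from untagged worms were not analysed here, so mRNA bound by CeLIN41 and mRNA retained by the beads or the tags cannot be told apart.

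CDK-1 is the cyclin-dependent kinase that, bound to a B-type cyclin, starts M phase. WEE1- and MYT1-type kinases hold it inactive by phosphorylating it near its ATP site, and CDC25 phosphatases remove these phosphates. In the worm germline this switch times oocyte meiotic maturation, which CeLIN41 is known to prevent until the oocyte is fully grown. The cdc-25.3 mRNA is known from earlier work to be held back from translation in oocytes. This depends on CeLIN41 and on the RNA-binding proteins OMA-1 and OMA-2. The study calls cdc-25.3 a putative target, and whether CeLIN41 regulates it directly was left to be tested.

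Abundances are given as CPM, counts brought to a common library size, with the TMM factors of edgeR (TMM-scaled CPM). Log2 fold changes (IP over input) were fitted on all genes by the quasi-likelihood method of edgeR, blocked by replicate, and their standard errors were derived from the F statistic. Only 1 residual degree of freedom remained per gene, so that the p-values rest on a spread estimated across genes. The log2 IP enrichment is the measure of the study. It is obtained by subtracting, within a replicate, the quantile-normalized log2 value of the input from that of the IP. Total counts per library ranged from 33455857 to 40743247. A call means an adjusted p below 0.05. Of 14029 genes tested, 32.9% were called enriched and 35.4% depleted in the IP, and the median log2 fold change was -0.14. A call in either direction is therefore common in this experiment, and the size of a change says more than the call. Of the 7 genes described here, 6 passed the filter on low counts. Of these, 5 were called enriched and 1 depleted, with a median log2 fold change of 1.32. The expression levels of cdc-25.4 were too low for the test.

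The cdc-25.3 mRNA stood far above the other members in the IPs. In replicate 1 its counts were 2749 in the input and 140463 in the IP, and in replicate 2 they were 3364 and 156029. On the TMM scale its abundance was 57.6 and 64.6 CPM in the inputs compared with 4575 and 5697 CPM in the IPs. Both IPs lay far above both inputs, and the replicates of either group lay close together. The log2 fold change of cdc-25.3 was 6.39 (standard error 0.24, adjusted p = 3.24e-152), an 83.7-fold difference. Only 12 of the other genes tested had a larger log2 fold change, which placed cdc-25.3 at rank 13 of 14029. By the study's own measure, its log2 IP enrichment was 5.57 in replicate 1 and 5.37 in replicate 2, with a mean of 5.47 ± 0.15 (SD, n = 2) and rank 12 among all 20392 genes. With no scaling beyond library size, the IP held 43.4 times the input level in replicate 1 and 44.3 times in replicate 2. The exact 95% binomial intervals (Clopper-Pearson) of these ratios were 41.7 to 45.0 and 42.8 to 45.8. Intervals given here cover counting error only.

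In the inputs cdc-25.3 was an mRNA of moderate abundance, at ranks 2775 and 2689 by counts. In the IPs it was among the most abundant mRNAs, at ranks 20 and 24. It took 0.00822% and 0.00865% of the input counts, and 0.356% and 0.383% of the IP counts. Per base of gene model, it moved from input ranks of 2091 and 1990 to IP ranks of 15 and 17.

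**Figure D1:**
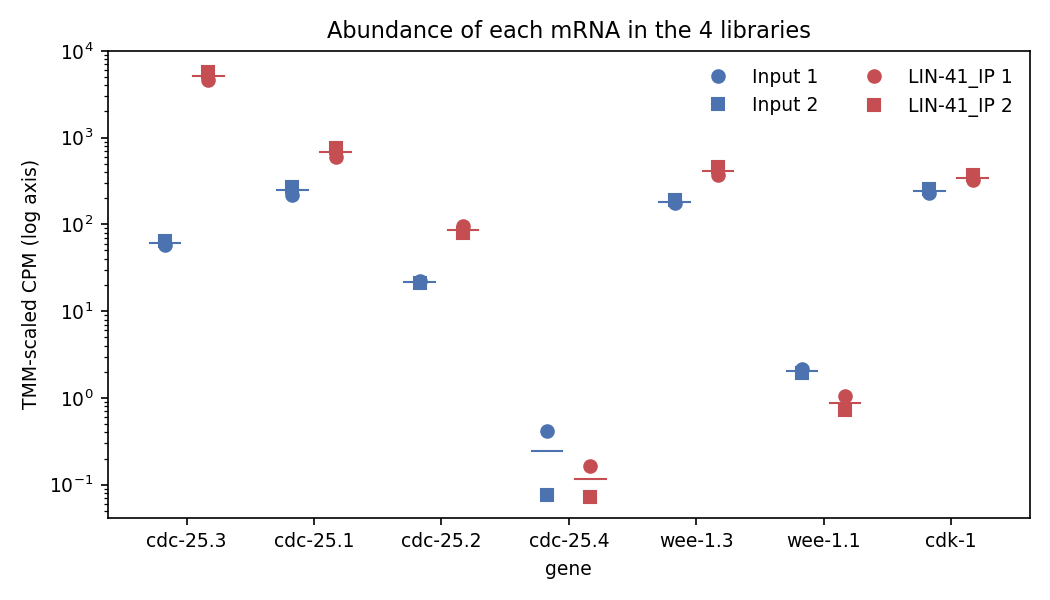
Abundance of the 7 mRNAs as TMM-scaled CPM on a log axis, with inputs in blue, IPs in red, circles for replicate 1, squares for replicate 2 and bars for the mean of both. The IPs of cdc-25.3 lie at 4575 and 5697 CPM, above every other value shown, whereas wee-1.1 is lower in both IPs than in both inputs and cdc-25.4 overlaps between the groups.

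The other paralogs were enriched far less or could not be tested. CDC-25.1, which is needed for germline proliferation and for the divisions of the early embryo, was encoded by the most abundant cdc-25 mRNA of the inputs. For the cdc-25.1 mRNA, the inputs gave 10422 and 14207 counts and the IPs gave 18394 and 20803. Its abundance rose from 218 and 273 CPM in the inputs to 599 and 760 CPM in the IPs on the TMM scale, without overlap. This is a 2.76-fold difference, or 1.47 on the log2 scale (SE 0.14, adjusted p = 6.61e-26). Its log2 IP enrichments were 0.57 and 0.64. CDC-25.2 is known to act in oocyte maturation and in the divisions of the intestinal lineage. Its mRNA went from 1060 and 1085 input counts to 2927 and 2164 IP counts, or from 22.2 and 20.8 CPM to 95.3 and 79.0 CPM. The groups did not overlap, and the log2 fold change of cdc-25.2 was 2.01 (standard error 0.11, adjusted p = 2.88e-79), or 4.03-fold. Its log2 IP enrichments were 1.72 and 1.61.

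The mRNA of cdc-25.4, the paralog of lowest abundance, was barely detected. Input counts of 20 and 4 stood against IP counts of 5 and 2, so that the groups overlapped. Per library size, the IP held 0.212 of the input level in replicate 1 (exact 95% binomial interval of 0.0622 to 0.582) and 0.477 in replicate 2 (0.0432 to 3.33). In replicate 2 the interval spans 1, and a difference was not detectable at this depth. With no filter on low counts, the log2 fold change of cdc-25.4 was -0.998 (adjusted p = 0.459). Its log2 IP enrichments, -0.58 and 0.093, differed in sign, although the ratios per library size were below 1 in both replicates.

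How far did cdc-25.3 differ from its paralogs? The IP enrichment of cdc-25.3 exceeded that of cdc-25.1 by 5.01 and 4.72 log2 units in replicates 1 and 2, and that of cdc-25.2 by 3.85 and 3.76. The mean differences were 4.87 ± 0.20 and 3.81 ± 0.06 (SD, n = 2), many times the spread between replicates. The difference from cdc-25.4 was 6.16 and 5.28, but it rests on 2 to 20 counts of cdc-25.4 per library. With 2 replicates, an exact sign-flip permutation test cannot give a two-sided p below 0.5, so no p was taken from it. The ratio of the counts of both genes within each library depends neither on scaling between libraries nor on a pseudocount. In the inputs there were 0.264 and 0.237 counts of cdc-25.3 for each count of cdc-25.1, and in the IPs there were 7.64 and 7.50. The ratio thus changed 29.0-fold in replicate 1 and 31.7-fold in replicate 2, with exact conditional 95% intervals of 27.7 to 30.3 and 30.4 to 33.0. Against cdc-25.2 it changed 18.5-fold (17.1 to 20.1) and 23.3-fold (21.4 to 25.22). On the log2 scale the mean of these changes was 4.37 ± 0.23 (SD, n = 2). This is larger and more spread than the 3.81 ± 0.06 of the quantile-normalized values. Against cdc-25.4 the changes were 204-fold and 92.8-fold, with wide intervals of 74.3 to 697 and 13.3 to 1026. All these intervals lie above 1. The intervals of replicates 1 and 2 do not overlap for cdc-25.1 or cdc-25.2, so the replicates differed by more than counting error, though by far less than either change.

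Among the paralogs of lesser enrichment, cdc-25.2 gained on cdc-25.1 by a smaller amount. The ratio of cdc-25.2 to cdc-25.1 counts changed 1.56-fold (1.45 to 1.69) in replicate 1 and 1.36-fold (1.26 to 1.47) in replicate 2. Both intervals exclude 1. On the log2 scale the mean of these changes was 0.55 ± 0.14 (SD, n = 2). By log2 IP enrichment cdc-25.2 exceeded cdc-25.1 by more, at 1.16 and 0.96 log2 units, with a mean of 1.06 ± 0.14.

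The make-up of the cdc-25 mRNAs was thereby turned over. Counted per base of gene model, cdc-25.1 made up 58.0% and 61.6% of the cdc-25 mRNA in the inputs, and cdc-25.3 made up 32.7% and 31.1%. In the IPs cdc-25.3 held 92.9% and 93.2%, and cdc-25.1 held 5.70% and 5.83%. The share of cdc-25.2 fell from 9.07% and 7.23% in the inputs to 1.39% and 0.931% in the IPs, although the abundance of the cdc-25.2 mRNA was higher there. As shares of counts without regard to length, cdc-25.3 went from 19.3% and 18.0% of the cdc-25 input counts to 86.8% and 87.2% of the IP counts. The Wilson 95% intervals of these 4 shares were 18.7% to 19.9%, 17.5% to 18.6%, 86.7% to 87.0% and 87.0% to 87.3%.

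**Figure D2:**
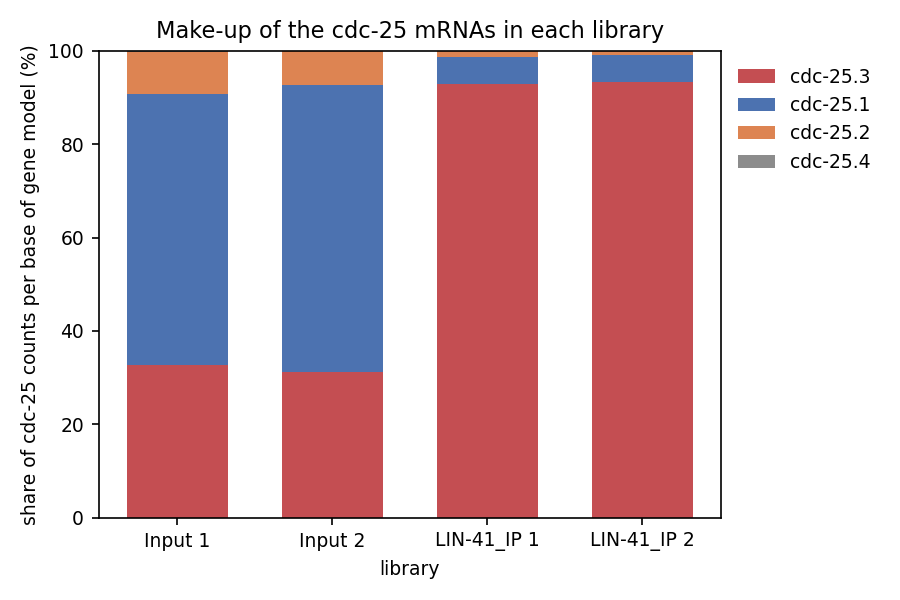
Share of each cdc-25 paralog in the cdc-25 counts of a library, with counts divided by the length of the gene model, for both inputs and both IPs. The cdc-25.3 segment grows from 32.7% and 31.1% in the inputs to 92.9% and 93.2% in the IPs, while the segment of cdc-25.4 is too thin to see.

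The kinases that oppose the CDC-25 phosphatases went in different directions. WEE-1.3, a MYT1-type kinase that keeps CDK-1 inactive in oocytes, was encoded by an abundant mRNA, with input counts of 8326 and 9896 and IP counts of 11403 and 12461. On the TMM scale the inputs held 174 and 190 CPM of wee-1.3 and the IPs held 371 and 455 CPM. The groups did not overlap on this scale, and the log2 fold change was 1.17 (standard error 0.12, adjusted p = 9.83e-21). Under library size scaling in place of TMM, the log2 fold change of wee-1.3 was 0.24 and the call was lost (adjusted p = 0.218). Its log2 IP enrichments were 0.21 and 0.41. The mRNA of wee-1.1, a WEE1-type kinase, was scarce, with input counts of 103 and 102 and IP counts of 32 and 20. At 1.04 and 0.730 CPM in the IPs against 2.16 and 1.96 CPM in the inputs, it was the only member that was called depleted. The log2 fold change of wee-1.1 was -1.22 (standard error 0.31, adjusted p = 0.00021). Without the IP of replicate 2 the log2 fold change was -1.02 and the call was lost (adjusted p = 0.0552), whereas it held without the IP of replicate 1 (-1.49, adjusted p = 0.0103) and without either input (adjusted p = 0.0394 and 0.0196). The log2 IP enrichments of wee-1.1 were -0.59 and -0.89. The ratio of wee-1.3 to wee-1.1 counts was 4.41-fold higher in the IP than in the input of replicate 1 (exact conditional interval of 2.94 to 6.78), and 6.42-fold higher in replicate 2 (3.95 to 10.96).

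The sign of cdk-1, the substrate of both enzymes, depended on the scaling. Counts of 10847 and 13209 in the inputs stood against 9920 and 10111 in the IPs, a ratio per library size of 0.776 (0.755 to 0.797) in replicate 1 and 0.731 (0.712 to 0.750) in replicate 2. On the TMM scale cdk-1 was higher in the IPs, at 323 and 369 CPM compared with 227 and 254 CPM in the inputs, and the log2 fold change was 0.52 (SE 0.12, adjusted p = 3.58e-05). Without the input of replicate 1 the adjusted p was 0.0577 and the call was lost. Scaled to library size only, it was -0.41 (adjusted p = 0.0342). The study's log2 IP enrichment of cdk-1 was also below 0, at -0.40 and -0.32. No direction is therefore given for cdk-1. Scaling by library size moves the median log2 fold change of all tested genes from -0.14 to -1.07. A change of scaling shifts the log2 fold changes of all genes by nearly the same amount. Distances from the median therefore stay almost the same by construction and are no test of the members. With TMM they were 0.66 log2 units for cdk-1, 6.52 for cdc-25.3, 2.15 for cdc-25.2, 1.60 for cdc-25.1, 1.31 for wee-1.3 and -1.08 for wee-1.1. With library size only, where 11.9% of all tested genes were called enriched and 66.5% depleted, the members called enriched were the 3 genes cdc-25.1, cdc-25.2 and cdc-25.3, and cdk-1 and wee-1.1 were called depleted.

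**Figure D3:**
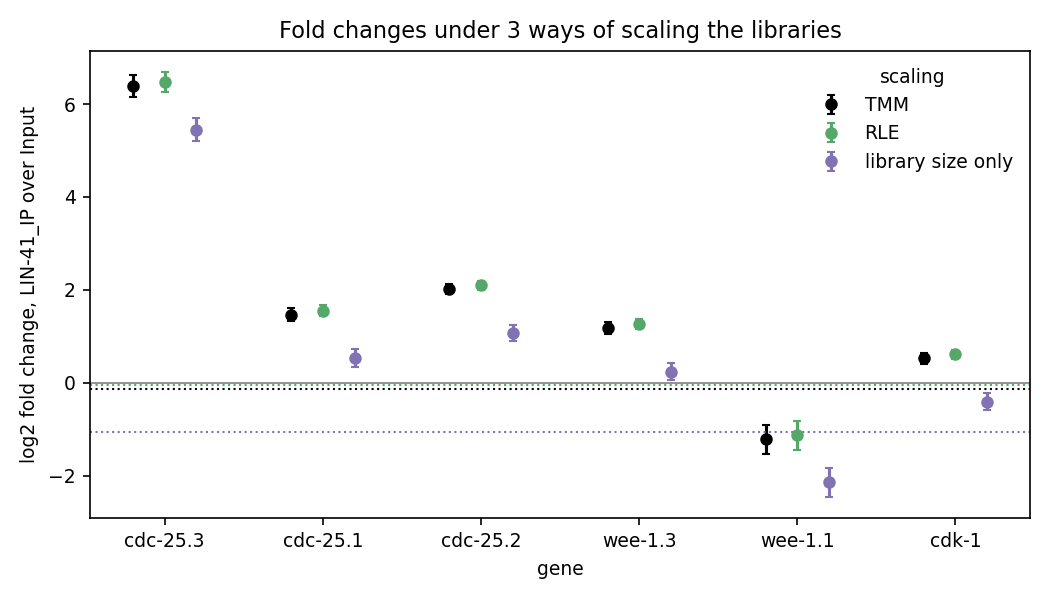
Log2 fold change (IP over input) of the 6 members tested, with TMM, RLE or library size as the scaling. Error bars are the standard errors derived from the F statistic and dotted lines mark the median of all 14029 tested genes under the same scaling. Library size alone lowers every member by about the shift of the median, which takes cdk-1 from 0.52 to -0.41 and wee-1.3 from 1.17 to 0.24. The kept order of the members follows from this common shift.

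With cdk-1 as the reference within each library, no scaling between libraries enters. Relative to cdk-1, cdc-25.3 was 55.9-fold higher in the IP than in the input of replicate 1 (exact conditional 95% interval of 53.3 to 58.6) and 60.6-fold higher in replicate 2 (58.0 to 63.3). For cdc-25.2 the change was 3.02-fold (2.80 to 3.26) and 2.61-fold (2.41 to 2.82). It was 1.93-fold (1.86 to 2.002) and 1.91-fold (1.85 to 1.98) for cdc-25.1, and 1.498-fold (1.44 to 1.56) and 1.65-fold (1.59 to 1.71) for wee-1.3. The ratio for wee-1.1 fell to 0.340 (0.221 to 0.510) and 0.256 (0.150 to 0.417) of its input value. In both replicates the order of the 6 tested members was cdc-25.3, cdc-25.2, cdc-25.1, wee-1.3, cdk-1 and wee-1.1. The scarce cdc-25.4, at 0.273 (0.0801 to 0.751) and 0.653 (0.0591 to 4.56), lay below wee-1.1 in replicate 1 and above it in replicate 2. Relative to wee-1.3, cdc-25.1 was 1.29-fold (1.24 to 1.34) and 1.16-fold (1.12 to 1.203) higher in the IP than in the input. The ratio to cdk-1 was chosen after the values had been seen.

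**Figure D4:**
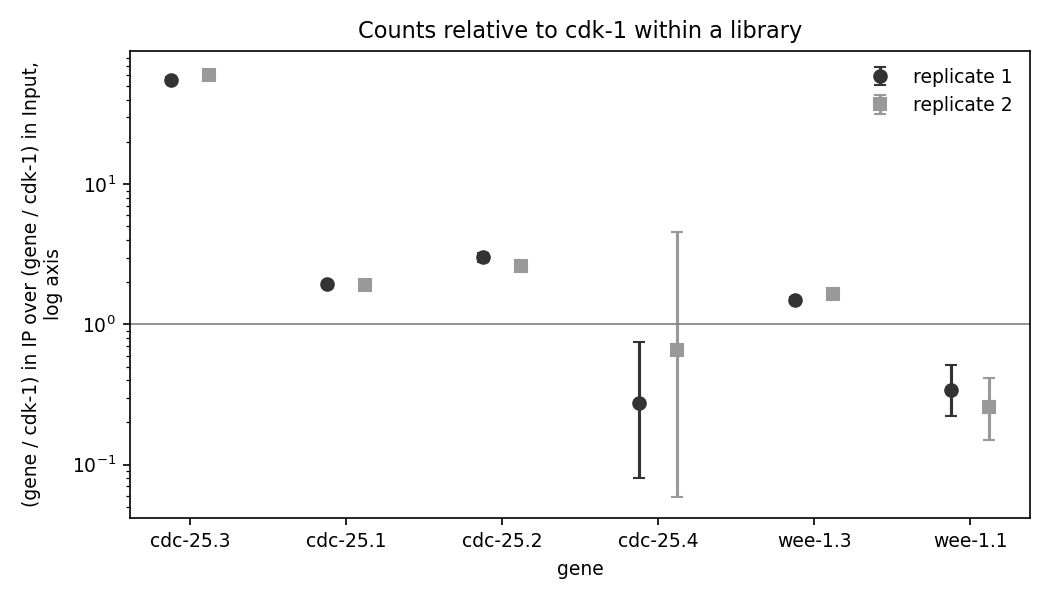
Ratio of each member's counts to those of cdk-1 in the IP, divided by the same ratio in the input, on a log axis, with circles for replicate 1 and squares for replicate 2. Bars are exact conditional 95% intervals, which cover counting error only. The values of cdc-25.3 are 55.9 and 60.6, those of wee-1.1 are 0.340 and 0.256, and the interval of cdc-25.4 spans 1 in replicate 2.

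Levels of different genes were compared per kilobase of gene model, as TMM-scaled CPM per kilobase (mean ± SD, n = 2). In input levels of whole worms, fewer cells of a type and less RNA per cell cannot be told apart. In the inputs the order was cdk-1 at 196 ± 15.3, cdc-25.1 at 107 ± 16.9, wee-1.3 at 73.4 ± 4.48, cdc-25.3 at 56.9 ± 4.64, cdc-25.2 at 14.4 ± 0.644, wee-1.1 at 1.46 ± 0.099 and cdc-25.4 at 0.221 ± 0.216. The replicate values of each gene lay above those of the next gene in this order. The cdc-25.3 mRNA was thus in the middle of the input order, below those of cdk-1, cdc-25.1 and wee-1.3. In the IPs cdc-25.3 was first, at 4782 ± 739. It was followed by cdc-25.1 at 297 ± 49.5 and cdk-1 at 283 ± 26.6, whose replicate values overlapped, and then by wee-1.3 at 166 ± 23.8, cdc-25.2 at 58.5 ± 7.74, wee-1.1 at 0.630 ± 0.157 and cdc-25.4 at 0.105 ± 0.057. Apart from the move of cdc-25.3 to the top and of cdk-1 to the level of cdc-25.1, the order was that of the inputs.

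The members were set beside other genes of the same pathway, taken from lists fixed by name with earlier results of these data known. Over all tested genes, 32.9% were called enriched and 35.4% depleted, or 11.9% and 66.5% with library size only. CDK-1 works with B-type cyclins and the small subunit CKS-1. All 5 of these partners that were measured (cyb-1, cyb-2.1, cyb-2.2, cyb-3 and cks-1) were called enriched, with a median log2 fold change of 1.67. The highest was cyb-1 at 2.27 and the lowest was cyb-2.2 at 1.45, so that none came near cdc-25.3. The cyclin genes cyb-2.1 and cyb-2.2 are close copies, and no source used here states how reads shared by both were counted, so their values are uncertain. All 5 were also called enriched with RLE factors and with library size only, where the median was 0.74. The A-type cyclin cya-1 was not analysed here. Of 9 other cyclin-dependent kinase genes, 5 were called enriched, 1 was called depleted and 3 were neither, with a median of 0.31. They ranged from -1.05 for cdk-2 to 1.77 for cdk-11.2. Scaled to library size only, 1 was called enriched and 7 depleted.

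Kinases and 14-3-3 proteins that act on CDC25 or WEE1 proteins, in worms or in other species, went both ways. Of 9 genes, 3 were called enriched and 4 depleted, beside 32.9% and 35.4% of all tested genes, with a median of -0.33. The highest was the Polo-like kinase gene plk-3 at 1.25, and the lowest was the 14-3-3 gene par-5 at -1.36. A list of 11 genes held parts of ubiquitin ligases, phosphatases and lin-35, which encodes the Rb-family pocket protein and is neither. Of these 11, 5 were called enriched and 4 depleted, with a median of 0.00, the value of lin-35 itself, and a range from -0.67 for cul-1, the cullin of SCF ligases, to 1.48 for cdc-14, a phosphatase that reverses CDK phosphorylation. Scaled to library size only, 8 of these 9 and 8 of these 11 genes were called depleted, beside 66.5% of all tested genes. Oocyte RNA-binding proteins known to act with CeLIN41 made up the last list. All 6 were called enriched, with a median of 1.77. Within this list only spn-4, at 6.48, was above cdc-25.3, and etr-1 was lowest at 0.76. On library size alone, 3 of these 6 were called enriched, compared with 11.9% of all tested genes, and the others were not called.

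**Figure D5:**
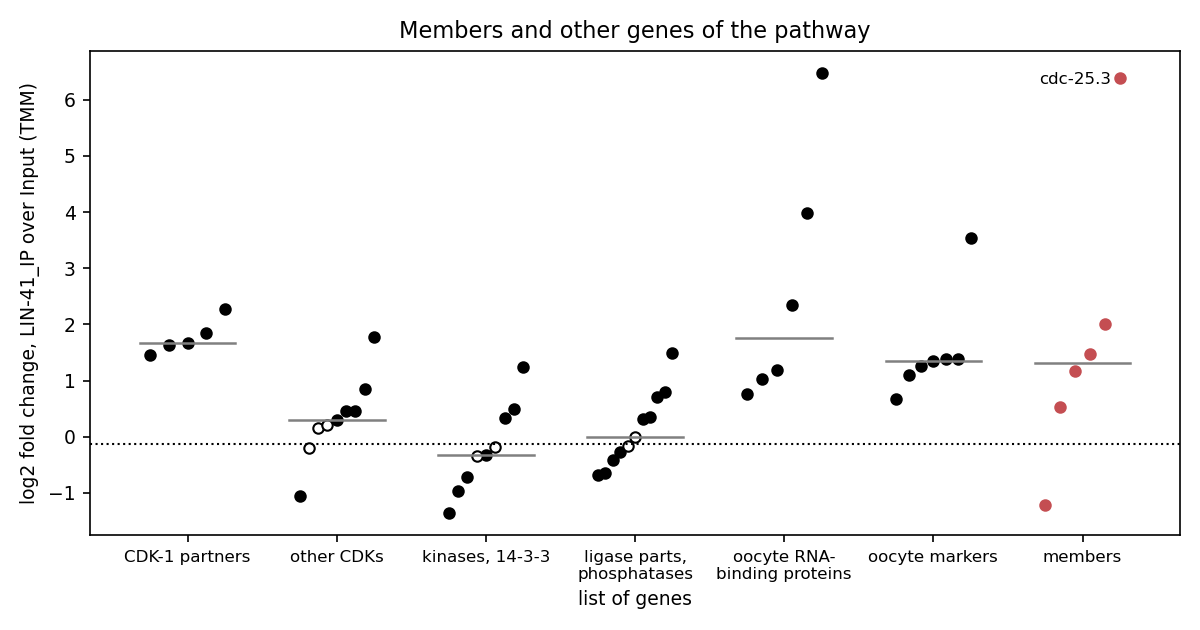
Log2 fold changes (IP over input, TMM) of the tested genes of 5 pathway lists, of the oocyte markers and of the 6 members tested in red. Filled points passed an adjusted p of 0.05, grey bars are medians and the dotted line marks the median of all tested genes, -0.14. The values of cdc-25.3, at 6.39, and of spn-4, at 6.48, lie above all others shown.

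Markers of the tissues in the lysate also moved. All 7 oocyte markers (rme-2, egg-1, egg-2, cbd-1, puf-5, puf-11 and chs-1) were called enriched, with log2 fold changes from 0.67 for puf-5 to 3.54 for puf-11, and none was at 0 counts. Their summed abundance was 2679 and 3077 CPM in the inputs and 8994 and 11496 CPM in the IPs. Much of this rise came from puf-11, at 338 and 420 CPM in the inputs and 3313 and 5791 CPM in the IPs. The log2 fold change of wee-1.3, at 1.17, lay within the range of these markers. Those of cdc-25.1 and cdc-25.2, at 1.47 and 2.01, lay below puf-11 but above all other oocyte markers. The log2 fold change of cdc-25.3 was above all 7, and those of cdk-1 and wee-1.1 were below all 7. Of the 7 general germline markers 3 were called enriched and 2 depleted, beside 32.9% and 35.4% of all tested genes. All 5 intestinal markers and 3 of 4 body wall muscle markers were called depleted, with medians of -0.84 and -1.13. Of the intestinal calls, 1 was lost with RLE factors, with DESeq2 and with no replicate block. The remaining muscle marker, unc-54, was called enriched at 0.32. This call was lost with no replicate block, and unc-54 was called depleted at -0.62 with library size only. Of 10 sperm markers, 5 were abundant enough to be tested and 4 of these were called depleted. The markers msp-19, msp-31 and spe-38 were at 0 counts in at least 1 library. The summed abundance of all 10 was 17.5 and 12.8 CPM in the inputs and 6.84 and 5.33 CPM in the IPs. Of the 3 neuronal markers, rab-3 was called enriched at a log2 fold change of 2.49, below puf-11 but above all other oocyte markers. The neuronal marker unc-13 was called depleted at -1.34, and none of the 3 hypodermal markers was called. Scaled to library size only, 4 of the oocyte markers were called enriched and 5 of the germline markers depleted. Under that scaling 11.9% of all tested genes were called enriched and 66.5% depleted. The part of these cell types in the values of the members was not tested.

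In the Ensembl annotation of assembly WBcel235, which is later than the ce10 assembly used for counting, cdc-25.3 and cdk-1 are on chromosome III, cdc-25.1 is on I, cdc-25.2 is on V, and cdc-25.4, wee-1.1 and wee-1.3 are on II. The longest annotated 3′-UTR has 153 bases for cdc-25.3, close to the median of 147 bases over 13139 tested genes whose 3′-UTR is annotated. The 3′-UTRs of the other members have 598 bases (cdc-25.2), 429 (wee-1.1), 426 (cdc-25.1), 365 (wee-1.3), 184 (cdk-1) and 52 (cdc-25.4). The most enriched member thus had a shorter annotated 3′-UTR than each of the other 5 tested members, and the depleted wee-1.1 had one as long as that of cdc-25.1. Counting used earlier gene models, of 1407 bases for wee-1.1 and 1491 bases for cdc-25.2. The longest annotated coding sequences of these genes have 1404 and 1440 bases. Neither counted model is thus long enough to hold the coding sequence and the annotated 3′-UTR in full. Coding genes on the opposite strand overlap cdc-25.3 (trxr-2, by 109 bases), cdc-25.1 (K06A5.2, by 7 bases) and wee-1.1 (exc-7, by 25 bases). In the IPs the counts of trxr-2 and K06A5.2 were small next to those of cdc-25.3 and cdc-25.1. There were 535 and 440 counts of trxr-2 and 50 and 48 counts of K06A5.2. In the inputs trxr-2 had 355 and 368 counts beside 2749 and 3364 of cdc-25.3, and K06A5.2 had 156 and 106. For wee-1.1 the neighbour was of like abundance, with input counts of 220 and 269 and IP counts of 147 and 99 for exc-7. The log2 fold change of exc-7 was -0.22 (adjusted p = 0.284). The libraries were stranded, but no source used here states whether counting used the strand.

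The genes whose 4 normalized log2 values lay nearest to those of cdc-25.3 by Euclidean distance, among all genes, were Y53C10A.6, nfyc-1 and F40G12.11, at distances of 0.51, 0.58 and 0.59 log2 units over the 4 libraries. The input values of cdc-25.3 were 11.42 and 11.47 and its IP values were 16.99 and 16.84. For Y53C10A.6 the inputs had 11.71 and 11.79 compared with 16.75 and 16.71 for the IPs, for nfyc-1 they had 11.75 and 11.91 compared with 16.84 and 16.74, and for F40G12.11 they had 11.27 and 11.36 compared with 16.55 and 16.50. Their log2 fold changes were 5.81, 5.88 and 5.91, all slightly below that of cdc-25.3.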

How the data were processed

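The authors quantified genes on WormBase WS220 models of assembly ce10 and deposited raw read counts per gene with gene model lengths. No source used here names the aligner or counter. The authors also deposited log2 values, made by scaling to library size, log2 transformation after adding a pseudocount of 8, and quantile normalization. Recomputed from the counts, they differed by at most 5e-09. IP enrichment was the IP minus the input of the same replicate, and 2 replicates limit its precision. Counts were tested with edgeR 4.0.16 in R 4.3.3 (TMM, filterByExpr, replicate block, Benjamini-Hochberg adjustment over 14029 genes, threshold 0.05). The study's methods subtract from each IP its respective input, and the replicate numbers were paired accordingly. Differences between replicates in IP and input correlated at r = 0.355 across genes. DESeq2 1.42.0, no block, RLE factors, library size only, other filters, another pseudocount and single libraries left out were the alternatives. The ratios to cdk-1 and the list counts under other scalings were added after seeing the data. Both fits and the enrichment step were tested on simulated data in which few genes changed, as many up as down. Such tests cannot show which scaling is right where many genes change. Intervals are exact binomial, exact conditional or Wilson intervals from scipy 1.17.1 at 95%. Symbols were found for 19182 of 20392 identifiers, and chromosomes and UTR lengths came from Ensembl. No sequences were used here. Values were given by rule for the 7 members, the highest and lowest gene of each pathway list and of the oocyte markers, and the 3 genes nearest to cdc-25.3 over the 4 libraries. Genes on the opposite strand of a member and markers at 0 counts were named in addition, as were the markers rab-3, unc-13 and unc-54. Members and lists were chosen with earlier results of these data known.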

Additional observations from a re-analysis of the deposited data

How the results depend on the processing

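The fold change of cdc-25.3 stayed enriched in all 10 alternative fits, with log2 fold changes from 5.45 (library size only) to 6.55 (without the IP of replicate 1) and a largest adjusted p of 9.12e-09. With no replicate block it was 6.39, with 4258 genes enriched and 4333 depleted, and this changed no call of a member. The numbers of genes called moved most with library size only, to 1670 enriched and 9333 depleted, and DESeq2 gave 3294 depleted genes. With library size only, 3 members were enriched and 2 depleted, the log2 fold change of cdk-1 reversed to -0.41, and that of wee-1.3 was 0.24 (adjusted p = 0.218). Leaving out 1 library gave 0 to 1 depleted members. The 0 arose without the IP of replicate 2, where wee-1.1 had an unadjusted p of 0.0278 in edgeR, and DESeq2 on all libraries called 1. The cause of these changes was not tested, except that library size scaling lowers the median of all genes. The log2 IP enrichment of cdc-25.3 was 6.38 with TMM factors in place of quantile normalization, and that of cdk-1 was then 0.52, a reversal. Single replicates gave -0.58 to 0.093 for cdc-25.4, a reversal in replicate 2 that rests on 4 input and 2 IP counts. The enrichment of cdc-25.3 over cdc-25.2 was 4.38 with library size only, 4.38 with TMM factors and 4.37 by raw counts. With quantile normalization it was 3.81. The settings without quantile normalization compute nearly the same ratio, so their likeness is by construction. Over cdc-25.4 it was 6.78 with TMM factors and 7.11 by raw counts. The deposited values gave the same enrichments. Depth limits cdc-25.4 and, at 20 to 103 counts, wee-1.1.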
